A study of Mus musculus with 12 samples.

Results

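The comparison described here set both groups of mice with glomerulonephritis (GN) against both control groups in kidney cortex, as the mean of the 2 GN groups minus the mean of the 2 control groups. It used all 12 libraries of the series, 6 GN libraries against 6 control libraries, with 1 mean fitted per group of 3. All 12 were stranded mRNA libraries from C57BL/6 mice labelled adult and male. Control mice given water (Control_water) and control mice given captopril (Control_captopril) received saline. Mice with GN given water (GN_water) or captopril (GN_captopril) received 10 mg of horse spleen apoferritin by intraperitoneal injection on 5 days a week together with lipopolysaccharide at 100 µg on 3 days a week. The injections went on for 6 weeks, and all kidneys were taken at week 9. Apoferritin is a foreign protein against which the mouse forms immune complexes, lipopolysaccharide serves as the adjuvant, and captopril inhibits angiotensin-converting enzyme at a dose the labels do not give. The titles carry a pair of consecutive numbers per library, and it is not stated whether a library holds 1 mouse or a pool. The p values therefore measure the spread between these libraries, which may be technical.

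Sex-linked transcripts went against the label male in 6 of the 12 libraries. Control_captopril and GN_water carried Xist at 181 to 375 CPM (counts relative to a common library size) and a Y-linked sum of at most 0.101 CPM, whereas Control_water and GN_captopril carried Y-linked transcripts summing to 121 to 144 CPM with Xist reaching only 0.182 CPM. The average over both treatment labels holds 3 libraries of each kind on either side. It can be split into 2 marker-matched pairs that share no library, GN_water against Control_captopril (both with Xist) and GN_captopril against Control_water (both with Y-linked RNA). The difference between these pairs equals the contrast of water labels against captopril labels, so sex-linked markers, treatment labels and any dependence of GN on either cannot be told apart in it. Groups are named as labelled and no library was moved. Values in each pair stand beside the average for many of the genes and lists.

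The tubule of the kidney cortex reclaims filtered solutes at a high cost in energy. Proximal tubule cells burn fatty acids, ketone bodies and amino acids in mitochondria and peroxisomes, while the distal convoluted and connecting tubules that follow adjust sodium, magnesium, calcium and potassium under hormonal control. In kidney disease with inflammation, the transcripts of differentiated tubules are known to decline while those of infiltrating leukocytes, matrix and injury responses increase. In bulk tissue, fewer cells of a type and less RNA per cell cannot be told apart.

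Library totals ran from 14.2 to 22.8 M counts (mega counts), and TMM scaling factors from 0.932 to 1.08. Within each pair the factors were higher in GN. They were 0.932 to 0.941 in Control_water and 0.967 to 0.984 in GN_captopril. In the other pair they were 1.006 to 1.025 in Control_captopril and 1.073 to 1.084 in GN_water. Defining markers of proximal tubule (Slc34a1, Lrp2), thick ascending limb (Umod, Slc12a1), distal convoluted tubule (Slc12a3), collecting duct (Aqp2, Atp6v1b1) and podocytes (Nphs1) were present in every library. The adrenal gland lies on the kidney, and its transcripts stood out in some libraries. Control_captopril replicate 3 held 7075 counts of 9 adrenal-restricted genes, while 1694 were found for GN_captopril replicate 3 and 365 for GN_captopril replicate 2. Each of the other 9 libraries held 18 to 176. The 12 leukocyte markers summed to between 376 and 599 CPM in the controls and between 994 and 1812 CPM in GN, without overlap. A list of 12 kidney medulla genes summed to 4355 to 5330 CPM in GN_captopril, 5123 to 6370 in Control_water, 6348 to 8105 in Control_captopril and 6699 to 8507 in GN_water. A list of 10 blood genes summed to 1091 to 1545 CPM in Control_water and 1218 to 2586 in Control_captopril. In GN it gave 1321 to 2351 CPM in GN_captopril and 2377 to 2738 in GN_water. Of the 10, 5 were called higher in the average (50%, beside 16.3% over all genes), and 1 to 9 when 1 library was left out. A list of 10 fat genes summed to 84.4 to 485 CPM over the libraries. The part of leukocyte, medullary, blood and fat RNA in the results below was not tested.

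Nearly as many genes were lower in GN as higher, and most of the falls were small. Of 14618 genes tested, 2133 were lower in GN (14.6% of those tested) and 2377 were higher (16.3%). Counts of list members in the average, given below, are to be read beside these shares. The median log2 fold change was -0.22 among the genes called lower and 0.65 among those called higher (edgeR quasi-likelihood test, Benjamini-Hochberg adjusted p under 0.05, as for every adjusted p in the text). Only 28 genes were lower by at least 2-fold (0.192%), against 775 higher (5.3%), and 123 were lower by at least 1.5-fold against 1295 higher. The median over all tested genes was -0.01. Upper quartile scaling moved all log2 fold changes up by a median of 0.04 and changed the split to 1377 lower and 2746 higher. Without Control_captopril replicate 3 and GN_captopril replicates 2 and 3, the libraries with the most adrenal counts, 831 genes were lower and 1463 higher.

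**Figure D1:**
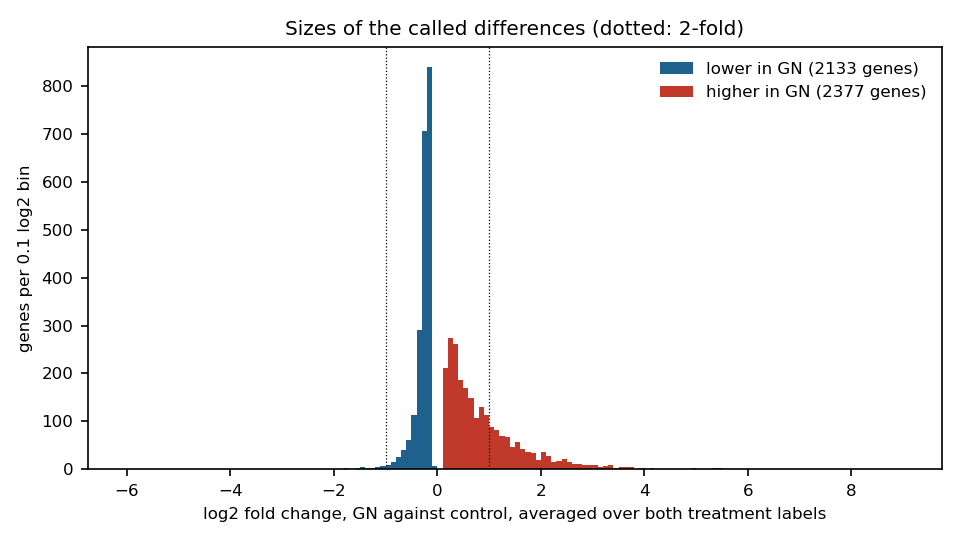
Histogram of the log2 fold change (x axis) of the 2133 genes called lower and the 2377 called higher in GN, in bins of 0.1 (y axis, genes per bin), with dotted lines at 2-fold. The lower genes gather between 0 and -1, and 28 lie beyond the lower dotted line, whereas 775 lie beyond the upper one.

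The pairs differed in how many genes passed the test. GN_water against Control_captopril gave 1914 lower (13.1%) and 2457 higher genes (16.8%, so that 29.9% were called in either direction), and GN_captopril against Control_water gave 733 lower (5.01%) and 1031 higher (7.05%). Counts of list members in a pair, given below, are to be read beside the shares of that pair. Unequal counts in the pairs do not by themselves show an unequal change. Called lower in both were 255 genes, which is 13.3% of the first list and 34.8% of the second, and 738 were called higher in both, 30% and 71.6% of the lists. Of the genes lower in the average, 1117 were also called in the GN_water pair alone, 310 in the GN_captopril pair alone and 451 in neither. Genes called in opposite directions in the pairs numbered 80, of which 9 were called in the average. The difference between the pairs itself was called for 956 genes (6.54%), 497 with a higher value in the GN_water pair (3.4%) and 459 with a lower one (3.14%). Libraries of GN and control did not overlap in either pair for 808 lower genes (5.53%) and 1304 higher genes (8.92%), and 5.23% and 8.79% of all genes were in addition called in the average. The counts in the GN_captopril pair depended on single libraries: 388 were lower without GN_captopril replicate 3, and 569 higher without Control_water replicate 2, the smallest counts when 1 library was left out. Without the 3 libraries with most adrenal counts this pair gave 67 lower and 195 higher genes, with a single GN_captopril library that is assumed to vary like the other groups.

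Genes ranked here by fold had to average at least 1 CPM, with no overlap of GN and control libraries in either pair. Among them the deepest fall was that of Mmp13, a collagenase (collagenase-3) that cleaves fibrillar collagen (chromosome 9 from 7272514 to 7283333). Positions are from the RefSeq annotation of GRCm38.p6, whose coordinates mm10 shares. Mmp13 had 2.51, 2.18 and 2.64 CPM in Control_water, 2.24, 3.13 and 3.49 in Control_captopril, 0.275, 0.247 and 0.445 in GN_water, and 0.332, 0.768 and 0.502 in GN_captopril. All 6 GN libraries lay below all 6 controls, as they did for 230 lower genes in the series (1.57% of those tested). Its log2 fold change was -2.67 ± 0.22 (SE), adjusted p = 9.28e-07, with -3.19 in the GN_water pair and -2.15 in the GN_captopril pair. Retnla, which encodes a secreted protein known from fat and alternatively activated macrophages, was chosen after its values were seen and lies under the level set for the other genes. Its libraries held 17, 6 and 14 counts in Control_water, 27, 15 and 24 in Control_captopril, 1, 2 and 1 in GN_water, and 0, 1 and 0 in GN_captopril. No GN library reached the lowest control in Retnla counts, and no fold is given at such counts.

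Further genes among the largest falls are given here, and lack of overlap in either pair was a condition of their choice. Nuak2, an AMPK-related protein kinase (chromosome 1 from 132316125 to 132333488), had 120.4, 139 and 97.9 CPM in Control_water, 108, 132 and 119 in Control_captopril, 75.5, 65.5 and 69.8 in GN_water, and 52.6, 59.7 and 43.5 in GN_captopril. Its GN libraries were all below its controls, and its log2 fold change of -0.98 ± 0.10 (SE) came with an adjusted p = 1.91e-05. Zbtb40, a zinc finger protein, had 32.3, 24.2 and 21.9 CPM in Control_water, 24.5, 24.96 and 22.9 in Control_captopril, 16.3, 16.9 and 17.4 in GN_water, and 16.2, 13 and 10.05 in GN_captopril. Here too the 6 GN libraries lay under the 6 controls, with a log2 fold change of -0.76 ± 0.11 (SE, adjusted p = 0.000203). Tox3, a high mobility group box protein, had 7.08, 7.16 and 5.74 CPM in Control_water, 12.7, 12.5 and 14.8 in Control_captopril, 6.46, 6.74 and 7.66 in GN_water, and 3.72, 4.28 and 3.44 in GN_captopril. GN libraries were below the controls within each pair, but GN_water overlapped Control_water, whose level is lower. Ddn, dendrin of the podocyte slit diaphragm, changed by -0.71 ± 0.09 and Slitrk6, a membrane protein known from neurons, by -0.85 ± 0.16 (log2 fold change ± SE), and the Slitrk6 call was lost without the 3 libraries with most adrenal counts.

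Several of the largest falls sat on a still larger difference between the library types. Ren1 encodes renin, made by juxtaglomerular cells and known to rise when angiotensin-converting enzyme is inhibited. It had 1142, 1083 and 1794 CPM in Control_water, 63.4, 78.2 and 82.8 in Control_captopril, 23.3, 30.2 and 20.8 in GN_water, and 499, 691 and 438 in GN_captopril. Both pairs were lower without overlap, with -1.30 ± 0.24 in the GN_captopril pair and -1.59 ± 0.27 in the GN_water pair (log2 ± SE), while the Y-linked libraries lay far above those with Xist in both states. Among controls Ren1 was thus lower in the libraries labelled captopril than in those labelled water, and in GN it was higher. Counts under Ren2, a gene that C57BL/6 mice lack and that shares reads with Ren1, are uncertain. Their log2 fold change was -1.48 ± 0.46 (SE, adjusted p = 0.0275), and the call was lost in 8 of 20 alternatives, 5 of which left out 1 library. Ugt1a1 shares exons with the other Ugt1a genes, so its counts are uncertain. It had 1.68, 2.25 and 1.93 CPM in Control_water, 25.3, 19.6 and 21.2 in Control_captopril, 11.9, 13.8 and 11.9 in GN_water, and 0.531, 1.04 and 1.005 in GN_captopril and fell in both pairs (-0.81 in the GN_water pair, adjusted p = 0.000294, and -1.15 in the GN_captopril pair, adjusted p = 0.00846). Slc22a27, an organic anion transporter gene, was near zero in the Y-linked libraries at 7, 5 and 4 counts in Control_water, 53, 65 and 64 in Control_captopril, 38, 55 and 39 in GN_water, and 1, 0 and 2 in GN_captopril. Its average of -1.32 ± 0.34 was called (adjusted p = 0.00847), and the call was lost without the 3 libraries with most adrenal counts and with limma on log2 RPKM. Akr1c20, an aldo-keto reductase, changed by -0.94 ± 0.22 (adjusted p = 0.00502), a call lost without the same 3 libraries. Kynu, which splits kynurenine in tryptophan breakdown, fell from 56.1 ± 3.53 to 37.8 ± 2.59 CPM and from 13.1 ± 2.11 to 7.42 ± 2.35 CPM (mean ± SD, n = 3 each), with a log2 fold change of -0.71 ± 0.12 (adjusted p = 0.00075).

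**Figure D2:**
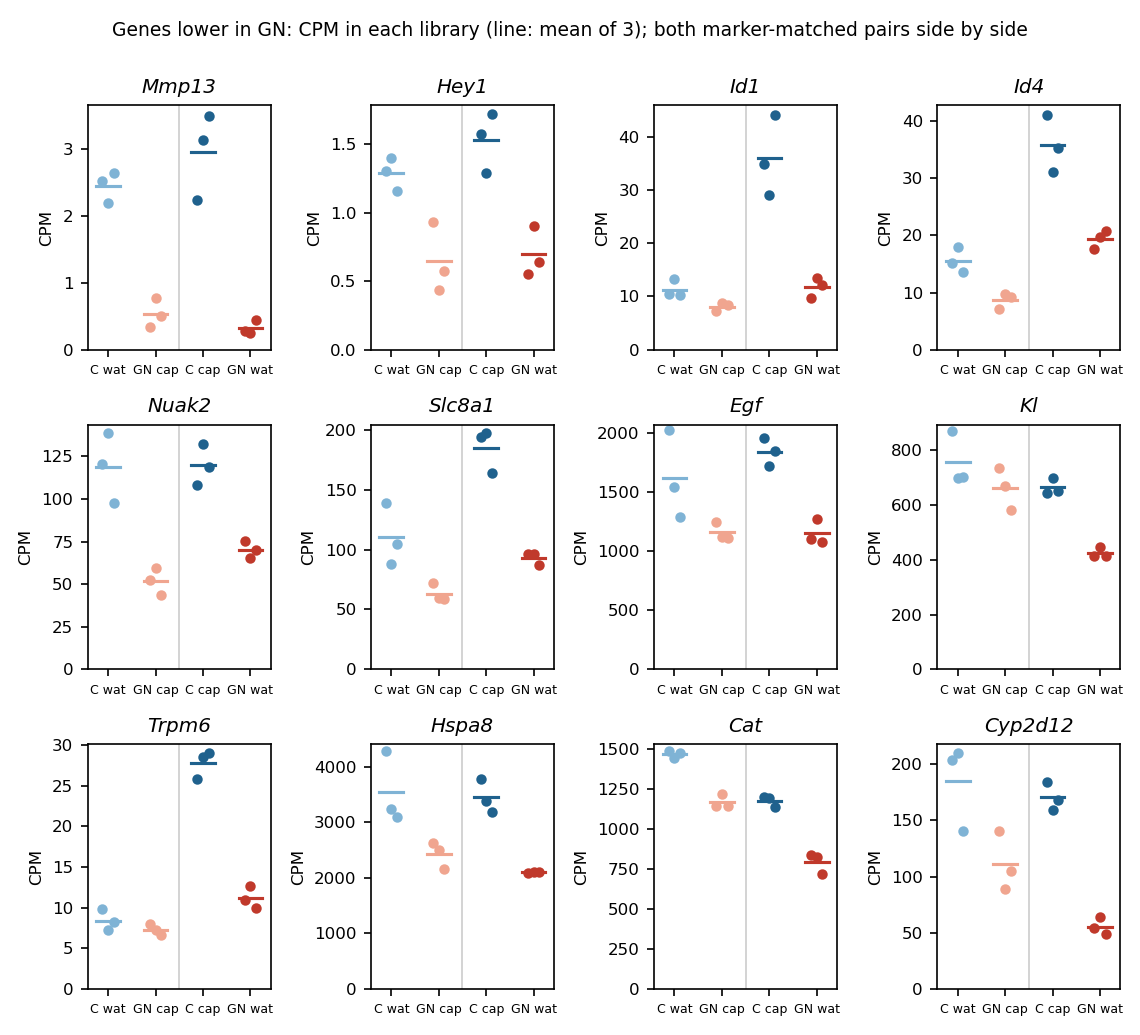
CPM (y axis, from 0) of 12 genes lower in GN in each of the 12 libraries, as points with the mean of 3 as a line; the left side of each panel sets Control_water beside GN_captopril and the right side Control_captopril beside GN_water (C, control; wat, water; cap, captopril). For Mmp13, Hey1, Nuak2, Egf and Hspa8 all GN points lie below all control points, whereas Id1, Trpm6 and Kl differ mostly on the right side.

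The inhibitor of DNA binding genes Id1 to Id4 were all lower in GN. Their proteins pair with basic helix-loop-helix transcription factors and keep them off DNA, and they are textbook targets of bone morphogenetic proteins (BMP), which act through Smad1, Smad5 and Smad9. Id1 and Id4 met the naming rule. Id2, Id3 and the BMP genes were chosen after their values were seen, so their counts describe and do not test. The windows below run from 250 bases before to 50 after the gene start (300 bases, 5′ to 3′ on the gene's strand, RefSeq, GRCm38.p6). They are shown because these genes were lower together. Capitals mark GGCGCC, a Smad element of BMP target genes that reads the same on both strands, where it is present.
Id2, chr12:25096043-25096342, minus strand: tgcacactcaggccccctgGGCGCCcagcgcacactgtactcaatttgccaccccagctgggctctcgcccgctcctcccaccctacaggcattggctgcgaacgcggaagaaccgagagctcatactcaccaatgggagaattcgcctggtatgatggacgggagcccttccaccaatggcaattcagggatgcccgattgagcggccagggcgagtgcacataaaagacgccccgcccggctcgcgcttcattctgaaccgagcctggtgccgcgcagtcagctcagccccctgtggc
Id3, chr4:136143572-136143871, plus strand: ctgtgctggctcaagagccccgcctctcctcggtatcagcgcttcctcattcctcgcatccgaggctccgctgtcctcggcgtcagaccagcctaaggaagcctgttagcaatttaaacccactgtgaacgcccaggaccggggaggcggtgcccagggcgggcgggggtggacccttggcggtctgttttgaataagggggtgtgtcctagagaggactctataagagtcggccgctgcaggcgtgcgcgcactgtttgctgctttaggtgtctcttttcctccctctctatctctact
Id4, chr13:48260866-48261165, plus strand: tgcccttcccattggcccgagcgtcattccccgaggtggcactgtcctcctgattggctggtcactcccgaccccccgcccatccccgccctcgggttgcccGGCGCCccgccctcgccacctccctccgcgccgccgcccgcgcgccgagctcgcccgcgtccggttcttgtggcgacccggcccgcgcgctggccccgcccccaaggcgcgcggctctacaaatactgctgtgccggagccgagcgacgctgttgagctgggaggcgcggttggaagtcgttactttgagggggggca
GGCGCC stood in the Id2 and Id4 windows and not in that of Id3, which says only that these letters are not in this window. Of the 11079 tested genes with a window, 20.6% held GGCGCC, against 378 of the 1641 called lower and 276 of the 1765 called higher (15.6%). A match is a description and not a binding site.

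Id2 (chromosome 12 from 25093799 to 25096092) had 306, 332 and 313 CPM in Control_water, 300.01, 323 and 267 in Control_captopril, 205, 196 and 174 in GN_water, and 208, 219 and 189.9 in GN_captopril. All 6 GN libraries were below all 6 controls, both pairs changed by a like amount (-0.63 in the GN_water pair, -0.62 in the GN_captopril pair), and the average was -0.63 ± 0.06 (SE, adjusted p = 2.02e-06). Id4 (chromosome 13 from 48261116 to 48266028) had 15.2, 17.96 and 13.5 CPM in Control_water, 41.1, 31.1 and 35.2 in Control_captopril, 17.6, 19.7 and 20.8 in GN_water, and 7.04, 9.76 and 9.18 in GN_captopril, with no overlap within either pair and an average of -0.86 ± 0.10 (adjusted p = 1.79e-05). Id1 (chromosome 2 from 152736251 to 152737410) had 10.4, 13.2 and 10.2 CPM in Control_water, 34.9, 29.1 and 44.1 in Control_captopril, 9.76, 13.5 and 12.1 in GN_water, and 7.17, 8.83 and 8.32 in GN_captopril. Control_captopril stood above the other 3 groups, so that Id1 fell by 1.61 on the log2 scale in the GN_water pair (adjusted p = 1.2e-05) and had -0.47 in the GN_captopril pair (adjusted p = 0.113), a difference between pairs that was itself called (adjusted p = 0.0155). Id3 (chromosome 4 from 136143822 to 136145392) had 46.7, 47.03 and 47.8 CPM in Control_water, 84.03, 96.6 and 93.98 in Control_captopril, 44.3, 52.2 and 47.99 in GN_water, and 30.6, 36.8 and 38.9 in GN_captopril and showed the same order of groups, with -0.93 and -0.41, both called, and a called difference between them (adjusted p = 0.0217). Hey1, a repressor downstream of Notch and BMP signals, had 1.30, 1.40 and 1.16 CPM in Control_water, 1.57, 1.29 and 1.72 in Control_captopril, 0.550, 0.905 and 0.642 in GN_water, and 0.930, 0.439 and 0.574 in GN_captopril, and its GN libraries lay below the controls (average -1.06 ± 0.21, adjusted p = 0.00174, lost without the 3 libraries with most adrenal counts).

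Genes of BMP signalling were taken by role. Of 45 genes tested, 13 were lower and 9 higher, with a median of -0.01, beside 14.6% and 16.3% over all genes (8 lower and 4 higher without the 3 libraries with most adrenal counts). These include 7 targets, among them Id1 to Id4 and Hey1, of which 5 were lower and 1 higher. The 38 other genes gave 8 lower and 8 higher. Among 7 ligands, Bmp7, a ligand of tubule cells known for opposing fibrosis, was lower (-0.23 ± 0.05, adjusted p = 0.00136; 56.5 to 60.7 CPM in Control_water, 53.6 to 60.8 in Control_captopril, 44.6 to 49.8 in GN_water, and 48.6 to 50.03 in GN_captopril), as was Bmp6 (-0.20 ± 0.05, adjusted p = 0.00406), whose call was lost without those 3 libraries and with limma on log2 RPKM. Bmp3 was higher (0.54 ± 0.15, adjusted p = 0.0143), in the GN_water pair (1.12) and not in the other (-0.03, not called). Among 10 receptors and coreceptors, Bmpr2 was lower (-0.22 ± 0.06) and Acvrl1 higher (0.21 ± 0.07). The Bmpr2 call was lost without those 3 libraries and with limma on log2 RPKM, and the Acvrl1 call in 10 of 20 alternatives. Of the Smad transducers, Smad9 was lower (-0.80 ± 0.19, adjusted p = 0.00468; -1.47 in the GN_water pair and -0.13, not called, in the other) and Smad1 higher (0.26 ± 0.06, adjusted p = 0.00471), each lost without those 3 libraries, while Smad5 had -0.04 ± 0.04 and Smad4 -0.05 ± 0.05, neither past the threshold. The inhibitory Smads, themselves induced by BMP signals, were lower, Smad6 with -0.51 ± 0.09 (adjusted p = 0.000514) and Smad7 with -0.42 ± 0.08 (adjusted p = 0.00161). Of the 5 intracellular inhibitors listed, 2 were lower in the average, 3 in the GN_water pair and 1 in the GN_captopril pair. Of 12 extracellular antagonists 5 were higher, among them Fstl1 (0.95 ± 0.07, adjusted p = 3.19e-07; 1.28 and 0.63 in the pairs; 27.7 to 31.6 CPM in Control_water, 30.4 to 32.01 in Control_captopril, 75.2 to 77.2 in GN_water, and 37.99 to 53.2 in GN_captopril), Fst (0.91 ± 0.17) and Grem1 (1.59 ± 0.38, from a mean of 0.328 ± 0.0883 and 0.217 ± 0.172 CPM in the controls). Fst and Grem1 were called in the GN_water pair (1.48 and 2.34) and not in the GN_captopril pair (0.33 with adjusted p = 0.431 and 0.84 with adjusted p = 0.36). Chrd, also higher, lost its call in 10 of 20 alternatives. Crim1 (-0.27 ± 0.05) and Sostdc1 (-0.12 ± 0.04) were lower, and Sostdc1 moved in opposite directions in the pairs, 0.25 with adjusted p = 0.00231 and -0.50 with adjusted p = 0.00014, and its average call was lost in 4 of 20 alternatives.

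The distal convoluted and connecting tubule list was the segment list with the lowest median among the 6 segments examined. It had 13 of 15 genes lower and 0 higher, a median of -0.39 (9 lower without the 3 libraries with most adrenal counts). The median was -0.54 in the GN_water pair (13 lower, 1 higher) and -0.30 in the GN_captopril pair (2 lower, 0 higher). Abca13, an ABC transporter, had 149.99, 116 and 121 CPM in Control_water, 148, 139.9 and 139.6 in Control_captopril, 95.9, 97.1 and 99.9 in GN_water, and 95.6, 95.2 and 93.9 in GN_captopril, with every GN library below every control and a log2 fold change of -0.49 ± 0.05 (SE, adjusted p = 1.18e-05). Of the WNK kinase pathway, which switches on the thiazide-sensitive sodium chloride cotransporter, Wnk4 had 151 to 172 CPM in Control_water, 147 to 173 in Control_captopril, 121 to 141 in GN_water, and 121 to 137 in GN_captopril and fell in both pairs (-0.27 and -0.30). Wnk1 changed by -0.76 in the GN_water pair and -0.22 in the GN_captopril pair, of which the first was called (adjusted p = 3.29e-05 and 0.127). Klhl3, the ubiquitin ligase adaptor that degrades WNK kinases, followed the same order with -1.10 and -0.33 (adjusted p = 1.74e-05 and 0.127). Both Wnk1 and Klhl3 stood highest in Control_captopril, at 713 ± 10.7 and 34.6 ± 2.76 CPM.

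Magnesium and calcium handling genes of these segments were among those lower. Of 17 magnesium genes 9 were lower and 1 higher (median -0.15), and of 18 calcium genes 10 were lower and 0 higher (median -0.27), beside 14.6% lower and 16.3% higher over all genes. For calcium 10 were lower and 1 higher in the GN_water pair but 1 lower in the GN_captopril pair, and for magnesium 8 and 5 were lower and 2 higher in each. Without the 3 libraries with most adrenal counts 5 of each were lower and 0 magnesium genes higher (2 higher without GN_water replicate 2). Trpm6, the magnesium channel of the distal convoluted tubule (chromosome 19 from 18730177 to 18892521), had 9.78, 7.28 and 8.19 CPM in Control_water, 25.8, 28.6 and 28.98 in Control_captopril, 11, 12.7 and 9.98 in GN_water, and 7.97, 7.24 and 6.67 in GN_captopril. Control_captopril stood above every other library, Control_water and GN_captopril overlapped, and Trpm6 changed by -1.31 ± 0.11 in the GN_water pair and -0.21 ± 0.13 in the other (log2 ± SE), a called difference (adjusted p = 0.00213). Egf encodes epidermal growth factor, made by the thick ascending limb and distal convoluted tubule and known to stimulate magnesium uptake (chromosome 3 from 129677574 to 129755322). It had 2024, 1544 and 1289.8 CPM in Control_water, 1959, 1724 and 1849.7 in Control_captopril, 1103, 1276 and 1078 in GN_water, and 1248, 1119.7 and 1116 in GN_captopril. The 6 GN libraries lay below the 6 controls, at a log2 fold change of -0.58 ± 0.09 (SE, adjusted p = 0.000685). Kcnj10 and Kcnj16 form the basolateral potassium channel of the distal convoluted tubule and changed by -0.44 ± 0.06 and -0.45 ± 0.05, the latter from 759.9 to 870.2 CPM in Control_water, 988 to 1130.5 in Control_captopril, 606 to 676 in GN_water, and 655 to 747 in GN_captopril, with -0.69 in the GN_water pair and -0.20, not called, in the other. Cldn16, a claudin of the thick ascending limb that lets magnesium pass between cells, was higher (0.31 ± 0.07, adjusted p = 0.00617), a call lost without those 3 libraries.

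Slc8a1, the sodium-calcium exchanger that returns calcium to blood (chromosome 17 from 81373105 to 81738387), had 139, 88.3 and 104 CPM in Control_water, 194, 197 and 164 in Control_captopril, 96.5, 96.2 and 87.5 in GN_water, and 71.7, 59.5 and 58.5 in GN_captopril. GN libraries were below controls within both pairs, with -0.99 and -0.81, and the average was -0.90 ± 0.10 (SE, adjusted p = 8.9e-05). Pvalb, parvalbumin of the early distal convoluted tubule, had 1.16, 0.789 and 1.22 CPM in Control_water, 33.8, 37.4 and 39.4 in Control_captopril, 4.03, 6.66 and 4.89 in GN_water, and 0.797, 0.329 and 0.359 in GN_captopril. Most of its signal was in the libraries with Xist, and in the others it was at most 1.22 CPM, where the GN_captopril pair did not pass the test (-1.11, adjusted p = 0.0739, against -2.82 in the GN_water pair). Kl, which encodes klotho, the coreceptor of the phosphate hormone FGF23, had 869, 699 and 703 CPM in Control_water, 644, 697 and 651 in Control_captopril, 415, 447 and 413 in GN_water, and 734, 667 and 583 in GN_captopril. GN_water was apart from all other libraries, while GN_captopril and Control_water overlapped (-0.64 with adjusted p = 0.000125 and -0.20 with adjusted p = 0.184). Pth1r, the parathyroid hormone receptor, changed by -0.26 ± 0.04 (adjusted p = 0.000389).

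Genes of acid secretion and ammonia transport in the collecting duct were among those lower. Of 31 acid-base transporters and carbonic anhydrases 13 were lower and 3 higher (median -0.16). Without the 3 libraries with most adrenal counts 7 were lower and 1 higher, and the higher count was also 1 without any 1 of 6 libraries (Control_captopril replicate 2 or 3, Control_water replicate 3, GN_captopril replicate 1, GN_water replicate 1 or 3). Of 16 intercalated cell genes 7 were lower and 0 higher (median -0.17; 3 lower without the 3 libraries with most adrenal counts). Rhcg, an ammonia channel, had 108, 101 and 97.6 CPM in Control_water, 163, 148 and 139 in Control_captopril, 106, 106 and 110.4 in GN_water, and 66.5, 69.3 and 60.3 in GN_captopril. It fell within both pairs without overlap (-0.48 and -0.64, average adjusted p = 1.42e-06). Its relative Rhbg changed by -0.52 ± 0.05 (adjusted p = 3.55e-06). Subunits of the proton pump followed, with Atp6v1b1 at -0.41 ± 0.04 and called in both pairs, and Atp6v0a4 at -0.28 ± 0.04, called in the GN_water pair only (-0.49, against -0.07 in the other; difference adjusted p = 0.00681). Car2, cytosolic carbonic anhydrase, changed by -0.28 ± 0.05. Of all 22 subunits of the proton pump measured, 7 were lower and 0 higher (3 under upper quartile scaling and 3 without those libraries). Principal cell genes gave 5 lower and 2 higher of 12 (median -0.18; 1 higher without any 1 of 7 libraries), among the lower Scnn1b (-0.27 ± 0.05) and Scnn1g (-0.31 ± 0.06) of the epithelial sodium channel. In the GN_water pair this list had 2 lower and 4 higher (median 0.06) and in the GN_captopril pair 5 lower and 0 higher (median -0.37).

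Proximal tubule genes were counted by segment. Of 18 genes of the early segments S1 and S2, 11 were lower and 0 higher (median -0.22; 4 lower without the 3 libraries with most adrenal counts, 6 without the 2 with most, and 7 under upper quartile scaling). Of 13 genes of the late segment S3, 1 was lower (7.69%) and 2 were higher (15.4%), shares not above the 14.6% and 16.3% over all genes. The S3 median was 0.06, with 0 to 2 lower and 0 to 3 higher when 1 library was left out. Both pairs had these signs, with medians of -0.36 and -0.11 for S1 and S2 and of 0.12 and 0.07 for S3, but 11 S1 and S2 genes were called lower in the GN_water pair and 1 in the GN_captopril pair. The difference between the pairs was called for 3 of the S1 and S2 genes. A test of the difference between the lists was not made. Slc13a3, which takes up dicarboxylates such as citrate and succinate, had 1011, 845 and 893 CPM in Control_water, 858, 878 and 876 in Control_captopril, 565, 523 and 433 in GN_water, and 693, 738 and 695 in GN_captopril, all GN libraries below all controls (-0.58 ± 0.06, adjusted p = 8.58e-06). Slc2a2, the basolateral glucose transporter GLUT2, had 192 to 216 CPM in Control_water, 192 to 223 in Control_captopril, 128 to 159.5 in GN_water, and 142 to 183 in GN_captopril, again without overlap between GN and controls (-0.42 ± 0.07, adjusted p = 0.000766). Cubn, the receptor that retrieves filtered proteins, changed by -0.30 ± 0.05 and Slc34a1, the main phosphate transporter, by -0.22 ± 0.06 (adjusted p = 0.0133). Cubn was not called in the GN_captopril pair (-0.15, adjusted p = 0.233). The Slc34a1 call was lost without the 2 or the 3 libraries with most adrenal counts and with limma on log2 RPKM. In S3 the male-typical amino acid transporter Slc7a13 was higher (0.32 ± 0.10, adjusted p = 0.0204), a call lost in 5 of 20 alternatives, and it was near absent from the libraries with Xist (759.7 to 838 CPM in Control_water, 1.66 to 1.75 in Control_captopril, 1.81 to 3.26 in GN_water, and 844 to 881 in GN_captopril).

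Over the whole solute carrier family, 62 of 303 tested genes were lower (20.5%) and 39 higher (12.9%), beside 14.6% and 16.3% of all genes. Without the 3 libraries with most adrenal counts 30 were lower and 25 higher, and under upper quartile scaling 43 and 48, so the direction of the larger count depended on the scaling. It also differed between the pairs, with 72 lower and 36 higher in the GN_water pair (median -0.05) and 14 lower and 29 higher in the GN_captopril pair (median 0.0084), and the called differences between pairs were lower in the GN_water pair for 35 genes and higher for 5. Aldehyde dehydrogenases had 10 of 20 lower and 4 higher, ABC transporters 13 of 38 lower and 2 higher (4 higher without GN_captopril replicate 1), and glutathione S-transferases 8 of 21 lower and 0 higher (4 under upper quartile scaling, and 5 without Control_captopril replicate 2, Control_water replicate 3 or GN_captopril replicate 2).

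Transcripts of mitochondrial fuel use were lower in GN at most steps, by small amounts. The tricarboxylic acid (TCA) cycle with pyruvate dehydrogenase had 20 of 24 genes lower and 0 higher, all 24 below 0, with a median of -0.16. Lower were 17 in the GN_water pair and 6 in the GN_captopril pair, in which 13.1% and 5.01% of all genes were lower. The difference between the pairs was called for 1 gene of this list. Without the 3 libraries with most adrenal counts 10 were lower, and 13 under upper quartile scaling. Pdha1, the pyruvate dehydrogenase subunit that commits pyruvate to oxidation (chromosome X from 160122219 to 160138430), had 721, 692 and 666 CPM in Control_water, 702, 667 and 699.96 in Control_captopril, 548, 530.3 and 519 in GN_water, and 632, 608 and 609 in GN_captopril. The GN libraries were below all controls (-0.27 ± 0.04, adjusted p = 6.21e-05). Sdha, Suclg1 and Suclg2, of succinate dehydrogenase and succinyl-CoA synthetase, changed by -0.26 ± 0.04, -0.22 ± 0.03 and -0.27 ± 0.04. The 36 complex I subunits had 14 lower and 0 higher with a median of -0.11 (7 without those 3 libraries, 8 under upper quartile scaling and 22 without Control_water replicate 1). Atp5a1, the alpha subunit of ATP synthase, had 2589.8 to 2660.5 CPM in Control_water, 2639 to 2734 in Control_captopril, 2277 to 2417 in GN_water, and 2278 to 2387 in GN_captopril (-0.19 ± 0.04, adjusted p = 0.00102).

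Transcripts for the breakdown of branched-chain amino acids were lower at most of its steps. Of 21 genes 17 were lower and 0 higher (median -0.25), with 13 to 19 lower across the alternatives, 16 lower in the GN_water pair and 7 in the GN_captopril pair. The difference between the pairs was called for 1 of the 21. Aldh6a1, which removes semialdehydes in valine breakdown, had 1448, 1269 and 1239 CPM in Control_water, 1158, 1041 and 1111 in Control_captopril, 753, 753 and 692 in GN_water, and 1215, 1177 and 1091 in GN_captopril, lower in the GN_water pair (-0.59, adjusted p = 2.78e-05) and not called in the other (-0.18, adjusted p = 0.102). Acadsb, which oxidises isoleucine intermediates, had 144 to 148 CPM in Control_water, 168 to 178 in Control_captopril, 129.8 to 139 in GN_water, and 126 to 129 in GN_captopril, Mccc1, of leucine breakdown, changed by -0.27 ± 0.03, and Pccb, of propionyl-CoA carboxylase, by -0.27 ± 0.04. All GN libraries were below all controls for Acadsb, Mccc1 and Pccb. Tyrosine and phenylalanine breakdown had 6 of 7 genes lower and 0 higher (median -0.20; 3 lower without the 3 libraries with most adrenal counts), among them Hgd (-0.21 ± 0.04), Hpd (-0.60 ± 0.11) and Gstz1 (-0.20 ± 0.04). In the GN_captopril pair Hgd was called, but Hpd (-0.51, adjusted p = 0.0579) and Gstz1 (-0.15, adjusted p = 0.0876) were not. Glycine, serine, choline and one-carbon metabolism had 14 of 26 lower and 4 higher (median -0.20), with 15 and 7 lower in the pairs. Dmgdh, dimethylglycine dehydrogenase, had 196, 195 and 178 CPM in Control_water, 182, 163 and 179.9 in Control_captopril, 122, 111 and 111 in GN_water, and 146, 152 and 153 in GN_captopril, with no overlap (-0.47 ± 0.04, adjusted p = 2.85e-06). Aldh7a1, of lysine and betaine metabolism, fell alike in both pairs (-0.37 and -0.37). Of 17 genes of proline, arginine, lysine and histidine breakdown 6 were lower and 1 higher (median -0.13; the 1 higher was lost without any 1 of 7 libraries, and 2 were higher without Control_water replicate 2). Aass, which starts lysine breakdown, changed by -0.39 ± 0.06 and Gcdh, a later step, by -0.24 ± 0.03. Aass was not called in the GN_captopril pair (-0.19, adjusted p = 0.16).

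Ammonia and glutamate metabolism had 10 of 14 genes lower and 0 higher (median -0.17), but 2 without the 3 libraries with most adrenal counts and 6 under upper quartile scaling. In the GN_water pair 8 were lower and 1 higher (median -0.31), and in the GN_captopril pair 1 was lower (median -0.06). Gpt2, mitochondrial alanine aminotransferase, had 78.4 to 89.4 CPM in Control_water, 87.1 to 109 in Control_captopril, 63.9 to 73.2 in GN_water, and 61.5 to 69.6 in GN_captopril, and all GN libraries lay below all controls (-0.42 ± 0.06, adjusted p = 9.65e-05). Glul, glutamine synthetase, changed by -0.41 ± 0.09 and was not called in the GN_captopril pair (-0.23, adjusted p = 0.277). Pck1, which draws carbon from the TCA cycle for glucose synthesis, had 1596, 1149.5 and 1326 CPM in Control_water, 4281, 2778 and 4329 in Control_captopril, 1017, 1142 and 718 in GN_water, and 1527, 1553 and 1605 in GN_captopril. Control_captopril was above all other groups, so the average of -0.89 ± 0.15 joined -1.98 in the GN_water pair with 0.20 in the GN_captopril pair (difference adjusted p = 0.00359), and the average call was lost without those libraries. Ketone body metabolism had 6 of 9 lower and 0 higher (median -0.16), beside 14.6% lower over all genes, with 6 lower and 1 higher in the GN_water pair and 0 lower in the GN_captopril pair. In tryptophan and NAD synthesis 6 of 17 were lower and 3 higher (median -0.03). Kmo and Kynu, of the kynurenine branch, were lower (-0.27 ± 0.04 and -0.71 ± 0.12) and Qprt, which leads from it to NAD, was higher (0.23 ± 0.04, adjusted p = 0.000506).

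Peroxisomes, which shorten long fatty acids and dispose of hydrogen peroxide, had 28 of 50 genes lower and 0 higher (median -0.15). The pairs differed: 32 were lower in the GN_water pair (median -0.26), and 5 lower and 3 higher in the GN_captopril pair (median -0.02), with a called difference for 13 genes. Cat, catalase (chromosome 2 from 103453904 to 103485153), had 1491, 1446 and 1475 CPM in Control_water, 1199, 1194 and 1138 in Control_captopril, 836, 825 and 718 in GN_water, and 1143, 1218 and 1141 in GN_captopril. It fell in both pairs without overlap (-0.57 and -0.33; average -0.45 ± 0.04, adjusted p = 3.83e-06). Acaa1b, a thiolase, was lower by a like amount in both (-0.68 and -0.68), whereas Decr2, a reductase for unsaturated fatty acids, had -0.71 and 0.01 (difference adjusted p = 0.000248). Of acyl-CoA synthetases and thioesterases 16 of 27 were lower and 1 higher (median -0.23; 0 higher without any 1 of 8 libraries), with 18 and 6 lower in the GN_water and GN_captopril pairs. Acsl1, which activates long-chain fatty acids, had 353, 321 and 297 CPM in Control_water, 753, 695 and 786 in Control_captopril, 500.4, 541 and 551 in GN_water, and 217, 199 and 222 in GN_captopril, lower within both pairs (-0.49 and -0.61). Slc27a2, a very long-chain fatty acid transporter, changed by -0.25 ± 0.05, Acot4 by -0.40 ± 0.04, and Acot3 by -0.92 in the GN_water pair and -0.24 in the other. Vnn1, pantetheinase, which releases the vitamin B5 part of coenzyme A, had 199.9, 178 and 161 CPM in Control_water, 236, 206 and 233 in Control_captopril, 109, 98.8 and 84.6 in GN_water, and 144, 155 and 158 in GN_captopril, all GN libraries below all controls, with a larger fall in the GN_water pair (-1.21, against -0.24; difference adjusted p = 0.00136).

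Of 19 regulators of mitochondrial biogenesis 10 were lower and 0 higher (median -0.18; 5 without the 3 libraries with most adrenal counts). In the GN_water pair 8 were lower (median -0.27) and in the GN_captopril pair 1 (median -0.04). Ppargc1a encodes PGC-1alpha, a coactivator of mitochondrial and fatty acid genes (chromosome 5 from 51454249 to 52115853). It had 81.5, 69.7 and 65.2 CPM in Control_water, 98.9, 90.3 and 88.5 in Control_captopril, 68.5, 70.8 and 72.2 in GN_water, and 62.6, 54.4 and 48.6 in GN_captopril and fell alike in both pairs (-0.39 and -0.39; average adjusted p = 0.000372). Its partner Esrrg, an estrogen-related receptor, changed by -0.28 ± 0.05, called in the GN_water pair (-0.41) and not in the other (-0.14, adjusted p = 0.255). Sirt3, the mitochondrial deacetylase, changed by -0.43 in the GN_water pair and -0.04 in the other (difference adjusted p = 0.00817). Import and quality control had 12 of 30 lower and 0 higher (median -0.10; 6 lower without those libraries; 12 and 2 lower in the pairs), with Timm50 at -0.22 ± 0.04, Lonp1 at -0.20 ± 0.04 and Pink1 at -0.22 ± 0.05. Mitochondrial ribosomal proteins had 7 of 77 lower (9.1%) and 0 higher, beside 14.6% and 16.3% of all genes, and between 2 and 12 lower when 1 library was left out.

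**Figure D3:**
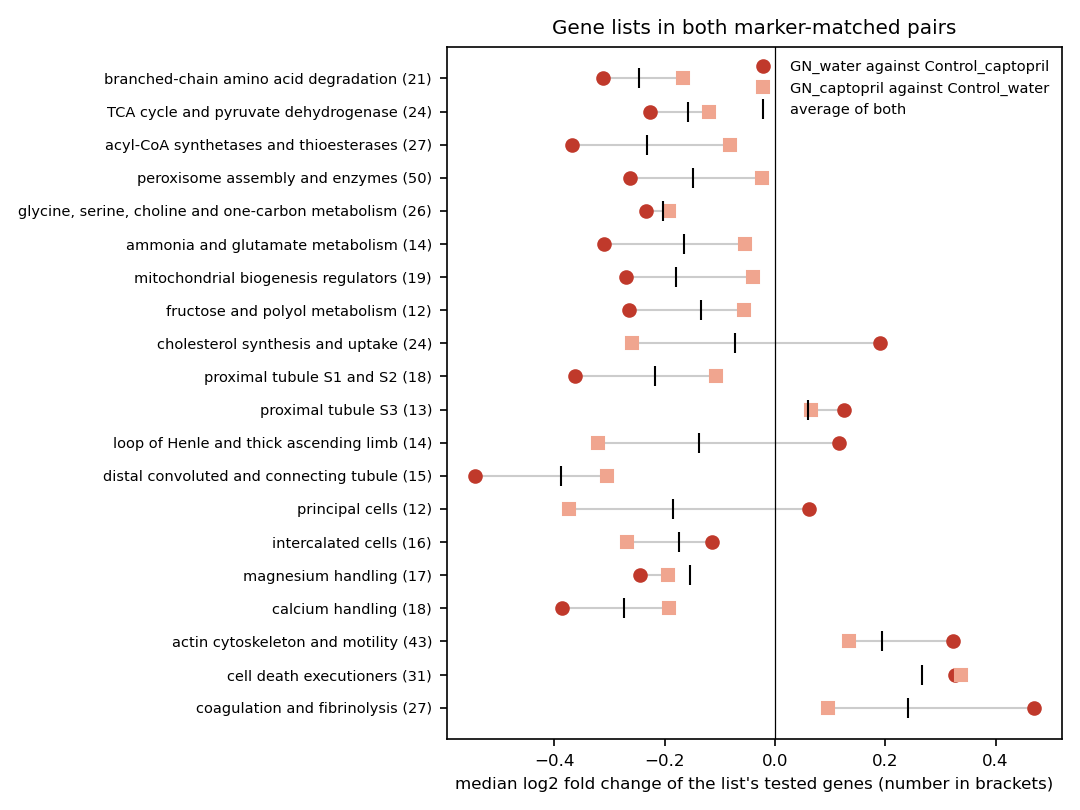
Median log2 fold change (x axis) of 20 gene lists (y axis, number of tested genes in brackets) in GN_water against Control_captopril (circles), GN_captopril against Control_water (squares) and their average (ticks). Metabolic and distal tubule lists lie below 0 in both pairs, while cholesterol synthesis, thick ascending limb and principal cell lists lie on opposite sides of 0.

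In cholesterol synthesis the average joined opposite pairs. Of 24 genes 4 were lower and 1 higher on average (median -0.07; 1 lower and 0 higher without the 3 libraries with most adrenal counts, and 0 or 2 higher without Control_water replicate 3, GN_water replicate 1 or GN_water replicate 3), but 9 were higher and 2 lower in the GN_water pair (median 0.19) and 11 lower and 0 higher in the GN_captopril pair (median -0.26), and the difference was called for 13, all in the same direction. Lss, lanosterol synthase, had 32.7, 29.2 and 33.3 CPM in Control_water, 23.6, 21.8 and 19.9 in Control_captopril, 22.2, 21.4 and 22.04 in GN_water, and 22.1, 21.1 and 23.2 in GN_captopril. It had 0.00 ± 0.08 (log2 ± SE) in the GN_water pair and was lower in the GN_captopril pair (-0.52 ± 0.08), where Control_water stood above the other groups. Dhcr7 gave 0.44 and -0.09, called in the first (adjusted p = 0.000322). The average call of Dhcr7 was lost without the 3 libraries with most adrenal counts. The thick ascending limb list also turned, with 2 lower and 6 higher in the GN_water pair (median 0.12) and 3 lower and 0 higher in the GN_captopril pair (median -0.32).

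Glucose handling moved both ways. In glycolysis and glucose uptake 6 of 25 genes were higher and 6 lower (median 0.01; 2 lower without the 3 libraries with most adrenal counts and 3 under upper quartile scaling). Hk3, the hexokinase of leukocytes, rose from 0.657 ± 0.387 and 0.733 ± 0.295 CPM in the controls to 4.73 ± 1.07 in GN_water and 2.93 ± 1.01 in GN_captopril (mean ± SD, n = 3 each). Slc16a3, a lactate exporter, rose by 1.79 ± 0.30 (log2 ± SE) and Pfkfb4, which sets the level of a glycolysis activator, by 0.50 ± 0.08, while Pfkm, the muscle-type phosphofructokinase, changed by -0.26 ± 0.04 with all GN libraries below all controls. The part of leukocyte RNA in the higher members was not tested. Fructose and polyol metabolism had 7 of 12 lower and 1 higher (median -0.13; 4 lower under upper quartile scaling and 0 higher without any 1 of 7 libraries), with 7 and 1 lower in the pairs. Sord, sorbitol dehydrogenase, had 2606 to 2750.3 CPM in Control_water, 1693 to 1859 in Control_captopril, 1325 to 1499 in GN_water, and 2137 to 2379.9 in GN_captopril and fell in both pairs (-0.29 and -0.26), while Tkfc, which phosphorylates a fructose product, fell in the GN_water pair (-0.74) and was not called in the other (0.03). Fbp1, of glucose synthesis, changed by -0.19 ± 0.03 and was not called in the GN_captopril pair (-0.08, adjusted p = 0.294).

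Some of the most abundant transcripts of the cortex were lower. Gpx3, the secreted glutathione peroxidase that the proximal tubule supplies to plasma (chromosome 11 from 54902854 to 54910387), had 28920, 31851 and 29057 CPM in Control_water, 41026, 41649 and 39367 in Control_captopril, 30420, 32937 and 30340 in GN_water, and 27117, 23949 and 23385 in GN_captopril. It fell within both pairs without overlap (-0.33 ± 0.05, adjusted p = 0.000166), the largest drop in mean CPM among the genes that met the naming rule. Hspa8, a constitutive heat shock protein (chromosome 9 from 40801276 to 40805202), had 4296, 3246 and 3096 CPM in Control_water, 3782, 3382 and 3189 in Control_captopril, 2098, 2106 and 2113 in GN_water, and 2636, 2501 and 2156 in GN_captopril, with all GN libraries below all controls (-0.63 ± 0.08, adjusted p = 7.06e-05). Of 21 heat shock and chaperone genes 6 were lower and 0 higher (median -0.17; 2 without the 3 libraries with most adrenal counts, and 10 without GN_captopril replicate 1). Dnajb1, a cochaperone, fell in the GN_captopril pair (-0.68, adjusted p = 0.000659) and had -0.03 in the other, and Bag3, another, did likewise (-0.60 and 0.05). The average calls of Dnajb1 and Bag3 were lost without the 3 libraries with most adrenal counts. Klk1, kallikrein of the connecting tubule, had 1816 to 1963 CPM in Control_water, 3387 to 3963 in Control_captopril, 2773 to 3106 in GN_water, and 1576 to 1709 in GN_captopril (-0.25 ± 0.05, adjusted p = 0.00118). Klk1 was called in the GN_water pair (-0.33, adjusted p = 0.00205) and not in the GN_captopril pair (-0.17, adjusted p = 0.114). Cyp2d12 and Dnase1, chosen after their values were seen, changed by -1.17 ± 0.14 and -1.03 ± 0.12, the latter with -1.63 in the GN_water pair and -0.43 in the other (adjusted p = 0.143). Cyp2d12 had 204, 209.7 and 141 CPM in Control_water, 184, 159 and 168 in Control_captopril, 54.3, 63.7 and 48.5 in GN_water, and 141, 88.9 and 105 in GN_captopril, lower in every GN_water library than in any control and overlapping between GN_captopril and Control_water.

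Among kidney growth factors and hormones 8 of 31 were lower (25.8%) and 11 higher (35.5%), beside 14.6% and 16.3% of all genes (median 0.11; 4 and 7 without the 3 libraries with most adrenal counts). Egf, Kl and Bmp7 were lower as given above. Igf1, insulin-like growth factor 1, had 8.57, 8.37 and 10.5 CPM in Control_water, 9.60, 9.63 and 9.31 in Control_captopril, 26.98, 38.3 and 32.6 in GN_water, and 13.8, 13 and 22.2 in GN_captopril and lay higher in all 6 GN libraries than in any control (1.30 ± 0.14, adjusted p = 2.61e-05). Stc2, a stanniocalcin, rose by 0.81 ± 0.10 and Pdgfb, a growth factor for pericytes and mesangial cells, by 0.43 ± 0.06. Of 42 tubule and nuclear receptor transcription factors 15 were lower and 4 higher (median -0.09; 9 and 1 without those 3 libraries). Hnf4a, a master regulator of proximal tubule genes, had 1219 to 1269.8 CPM in Control_water, 1111 to 1212 in Control_captopril, 823 to 853 in GN_water, and 1046 to 1217 in GN_captopril and was called lower in the GN_water pair (-0.48, against -0.17 in the other; difference adjusted p = 0.0459). Sim1 (-0.42 ± 0.07) and Tfcp2l1 (-0.33 ± 0.05, the latter in the GN_water pair, -0.55) were lower, and Epas1, the hypoxia-inducible factor of the renal interstitium and endothelium, had 141 to 178 CPM in Control_water, 175 to 209 in Control_captopril, 139.6 to 147 in GN_water, and 121 to 135 in GN_captopril and fell in both pairs (-0.42 and -0.35). Sox9, a factor of regenerating tubules, rose from 0.440 ± 0.180 and 0.677 ± 0.0711 CPM to 1.65 ± 0.364 in GN_water and 1.25 ± 0.360 in GN_captopril (1.39 ± 0.23, adjusted p = 0.000442). Of 31 cilium and cyst genes 6 were lower and 0 higher, 19.4% beside 14.6% of all genes, and 1 without those 3 libraries.

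Of 23 lymphatic and angiogenic genes 8 were higher (34.8%) and 4 lower (17.4%), with a median of 0.11. Over all genes 16.3% were higher and 14.6% lower, so the lower share was near that of all genes. Aplnr, the apelin receptor, had 9.59, 9.16 and 11.7 CPM in Control_water, 5.83, 8.89 and 8.60 in Control_captopril, 26.8, 34.9 and 28.7 in GN_water, and 14.9, 17.6 and 13.2 in GN_captopril (1.28 ± 0.12, adjusted p = 4.25e-06, with 1.96 in the GN_water pair and 0.60 in the other, difference adjusted p = 0.00425). Apln, its ligand, rose by 0.47 ± 0.07 and Pecam1, a pan-endothelial adhesion molecule, by 0.35 ± 0.04. Esm1, endocan, a proteoglycan of endothelial tip cells (chromosome 13 from 113209659 to 113218104), had 47.5, 38.6 and 40.4 CPM in Control_water, 36.3, 41.9 and 44.1 in Control_captopril, 10.2, 11.3 and 11.7 in GN_water, and 41.4, 44.3 and 37.6 in GN_captopril. The 3 GN_water libraries were low and the other 9 overlapped, with a log2 change of -1.88 ± 0.10 against Control_captopril and -0.04 ± 0.09 in the GN_captopril pair (difference adjusted p = 1.31e-05). Ptgfr, a prostaglandin receptor, was lower in both pairs (-0.83 and -0.49), as was Cyp2c44, an epoxygenase of arachidonic acid (-0.70 and -0.46). Ptger1 had 1.44 in the GN_water pair and -0.43 in the GN_captopril pair, of which the first was called (adjusted p = 4.15e-05 and 0.116). Its average call was lost without the 3 libraries with most adrenal counts.

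Genes higher in GN outside the best-known immune markers included matrix regulators, protease inhibitors and cell death genes. Ltbp2, a microfibril protein related to the binders of latent TGF-beta (chromosome 12 from 84783212 to 84876558), had 0.978, 0.607 and 0.645 CPM in Control_water, 0.449, 0.645 and 0.759 in Control_captopril, 7.83, 10.2 and 6.62 in GN_water, and 3.52, 3.46 and 5.81 in GN_captopril. All GN libraries exceeded all controls, as for 786 higher genes in the series (5.38%), and the log2 fold change was 3.10 ± 0.20 (SE, adjusted p = 2.12e-07). The metalloproteinase inhibitor Timp1 had 0.279, 0.607 and 0.709 CPM in Control_water, 0.269, 0.414 and 0.860 in Control_captopril, 6.18, 5.63 and 5.39 in GN_water, and 3.06, 2.25 and 2.87 in GN_captopril (2.94 ± 0.23, adjusted p = 6.17e-07), opposite in direction to Mmp13. Serpina3g, a serpin that inhibits cathepsins, had 0.978, 1.64 and 1.22 CPM in Control_water, 1.21, 3.18 and 3.14 in Control_captopril, 23.4, 24.5 and 23.4 in GN_water, and 11.96, 8.89 and 17.2 in GN_captopril (3.28 ± 0.23, adjusted p = 3.05e-06). Serpina3f, a near relative that may share its reads, rose by 2.94 ± 0.41, and of 25 serpins 11 were higher and 0 lower (median 0.46). Slpi, a secreted inhibitor of leukocyte elastase, had 2.23, 2.002 and 3.48 CPM in Control_water, 2.92, 3.55 and 3.74 in Control_captopril, 27.9, 59.7 and 25.2 in GN_water, and 5.11, 4.94 and 26.5 in GN_captopril, with a wide spread in both GN groups (2.85 ± 0.53, adjusted p = 0.00427, and adjusted p = 0.115 in the GN_captopril pair). Gpnmb, a glycoprotein of lysosome-rich phagocytes, had 0.372, 0.364 and 0.645 CPM in Control_water, 0.269, 0.0461 and 0.354 in Control_captopril, 4.17, 15.6 and 7.07 in GN_water, and 1.46, 3.24 and 19.02 in GN_captopril, with GN_captopril replicate 1 the lowest of the GN libraries (4.70 ± 0.88, adjusted p = 0.00411, and adjusted p = 0.0623 in the GN_captopril pair). Slc2a6, a glucose transporter family member of lysosomes, had 0.326, 0.485 and 0.451 CPM in Control_water, 0.135, 0.0921 and 0.152 in Control_captopril, 2.11, 4.19 and 2.13 in GN_water, and 1.93, 0.933 and 3.30 in GN_captopril (3.34 ± 0.36, adjusted p = 1.31e-05).

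**Figure D4:**
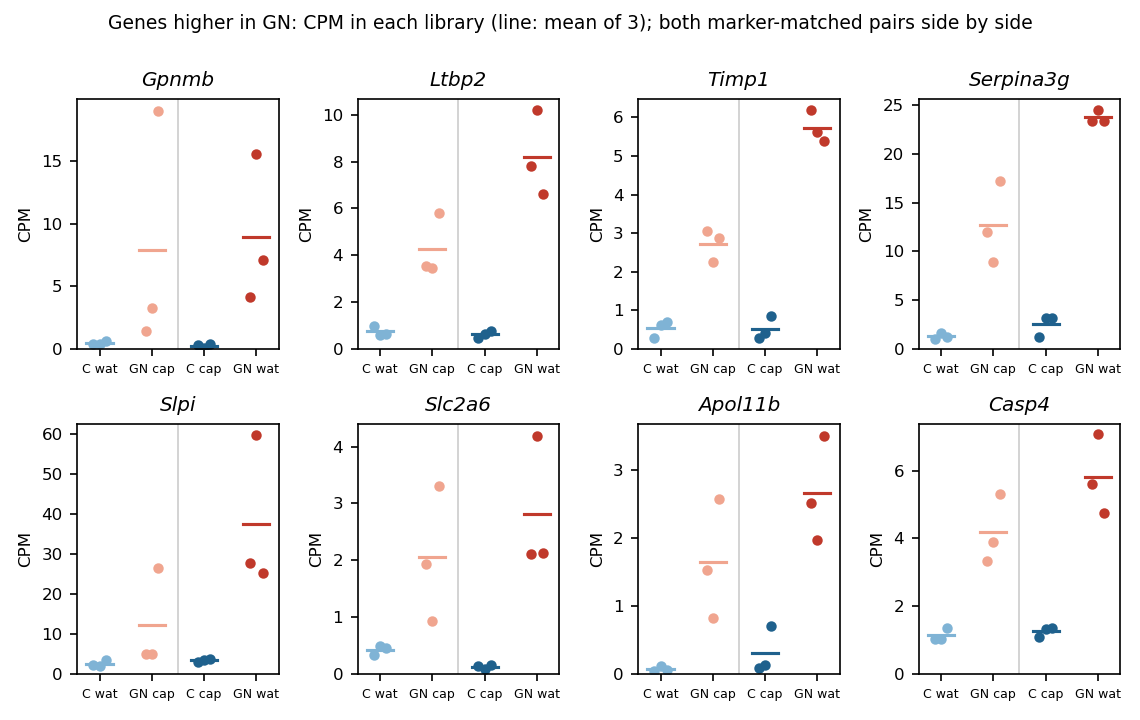
CPM (y axis, from 0) of 8 genes higher in GN in each of the 12 libraries, points with the mean of 3 as a line, in the order Control_water, GN_captopril, Control_captopril, GN_water (C, control; wat, water; cap, captopril). All GN points lie above all control points in each panel, and Gpnmb and Slpi spread most within the GN groups.

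Cell death executioners had 18 of 31 genes higher (58.1%) and 3 lower (9.68%; 1 lower without the 3 libraries with most adrenal counts), with medians of 0.33 and 0.34 in the pairs. Over all genes 16.3% were higher and 14.6% lower. Casp4, the caspase that senses intracellular lipopolysaccharide, had 1.02, 1.03 and 1.35 CPM in Control_water, 1.08, 1.34 and 1.37 in Control_captopril, 5.59, 7.07 and 4.74 in GN_water, and 3.32, 3.89 and 5.31 in GN_captopril (2.04 ± 0.16, adjusted p = 6.3e-07). Casp12 rose by 1.54 ± 0.15 and Zbp1, a nucleic acid sensor of necroptosis, by 1.74 ± 0.21, each called in both pairs. Of 43 actin cytoskeleton genes 32 were higher and 1 lower (median 0.19; 21 and 0 without the 3 libraries with most adrenal counts), with 33 and 16 higher in the GN_water and GN_captopril pairs. Arpc1b had 0.99 and 0.45 in the pairs, Vasp 0.75 and 0.36, and Tpm4 an average of 0.49 ± 0.04. Annexins, galectins and S100 proteins had 15 of 26 higher (57.7%) and 4 lower (15.4%; median 0.35), with 2 lower without Control_captopril replicate 2, Control_water replicate 3 or GN_captopril replicate 3. Their member S100a4 rose by 1.87 ± 0.21, Anxa2 by 1.05 in the GN_water pair and 0.47 in the other, and Lgals3 by 1.03 in the GN_water pair against 0.08 in the other. Coagulation and fibrinolysis had 11 of 27 higher (40.7%) and 2 lower (7.41%; median 0.24; 1 lower without any 1 of 4 libraries). F5, coagulation factor V, was lower (-0.79 ± 0.16, adjusted p = 0.00318), a call lost without the 3 libraries with most adrenal counts. Eicosanoid synthesis had 11 of 29 higher (37.9%) and 5 lower (17.2%; median -0.0008), with Hpgds at 1.61 ± 0.15 and Alox5ap at 1.51 ± 0.16. Of 27 p53 targets and senescence genes 10 were higher and 1 lower (median 0.16; 2 lower without Control_captopril replicate 1), and Trp53 itself changed by 0.37 ± 0.06. Higher genes in the GN_water and GN_captopril pairs numbered 16 and 12 for cell death, 15 and 9 for annexins, galectins and S100 proteins, 11 and 5 for coagulation, 12 and 6 for eicosanoids and 12 and 2 for p53 targets. Leukocytes express many members of these lists, and the leukocyte sums were higher in the same libraries. The part of leukocyte RNA in these counts was not tested.

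Genes followed one by one could be compared across both pairs, not all of which are named. Of 189 called in the average, Retnla apart, the difference between the pairs was called for 40 and not for 149, which does not show that those 149 changed alike. Among the falls of nearly equal size in both pairs were Id2, Id4, Acaa1b, Aldh7a1 and Ppargc1a.

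**Figure D5:**
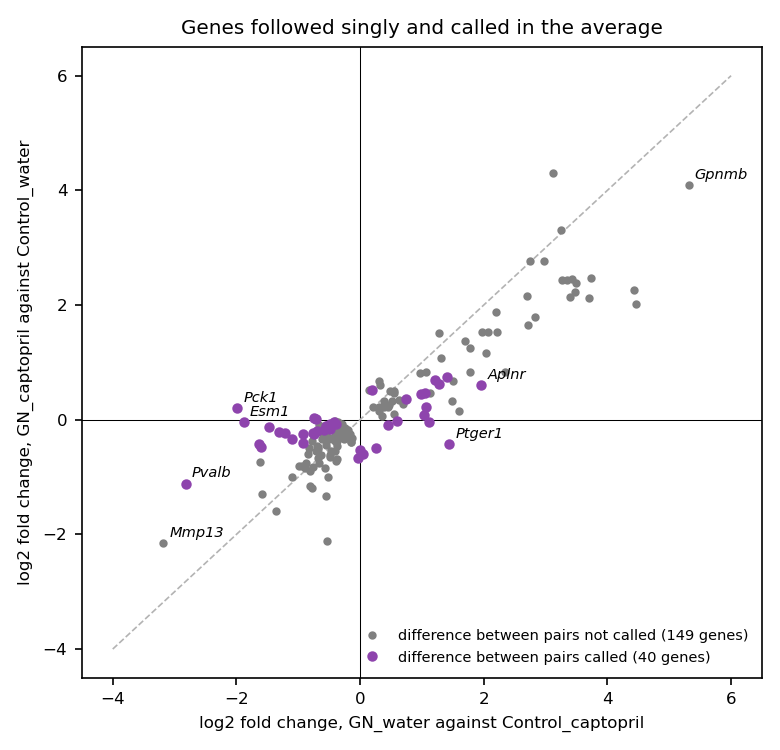
Log2 fold change of the 189 genes followed one by one and called in the average (Retnla, for which no fold is given, is left out) in GN_water against Control_captopril (x axis) and GN_captopril against Control_water (y axis), with a dashed line at equal change; the difference between the pairs was called for 40 (purple) and not called for 149 (grey). Esm1 and Pck1 lie near 0 on the y axis and far below 0 on the x axis, whereas Mmp13 was called lower in both.

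The promoter windows were searched for the letters of 7 motifs on both strands, and the shares of the 4 motifs under 10 letters are given as descriptions. GGCGCC is given above. The PU.1 letters GAGGAAGT stood in 6.12% of the windows of genes called higher, in 1.52% of those called lower and in 3.08% of all windows. The E-box CACGTG stood in 10.7% of lower, 7.14% of higher and 9.87% of all windows. Estrogen-related receptor letters TCAAGGTCA were in 0.305% of lower, 0.397% of higher and 0.262% of all windows, which are only 5, 7 and 29 windows. Overlaps between motifs were not looked for.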

How the data were processed

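Gene counts and RPKM values of 12 kidney cortex libraries (stranded mRNA-seq) were deposited by the authors. The deposited table of estimated counts has one column per library, and 13.6% of its entries are not whole numbers, so counts were rounded. The deposited RPKM table served in an alternative only, on the scale log2(RPKM + 0.1). The submitters' processing notes name Bowtie2, Partek and mm10, with roles and versions not given in the sources used here. Totals were 14.2 to 22.8 M counts, and intervals of counting error are not given for single libraries.

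Genes were filtered with filterByExpr (minimum count 10, minimum total 15), scaled by TMM and fitted with 1 mean per group by edgeR 4.0.16 (robust quasi-likelihood test, two-sided, R 4.3.3). Benjamini-Hochberg adjustment ran over the 14618 genes tested, with 0.05 as the threshold, and SE is the log2 fold change divided by the root of F. CPM values use TMM library sizes. On simulated counts of 14618 genes for the average, 38%, 74%, 98% and 100% of 50 changed genes were recovered at log2 sizes of 0.25, 0.5, 1 and 2. In the same simulation 16 unchanged genes were called. It held no other group differences, so far fewer genes changed than were called in the data, and recovery in the data may differ.

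Named genes were, among those called in the average at a mean CPM of 1 or more and without overlap of GN and control libraries in either pair, the 20 lower genes with the largest fold, the 10 with the largest fall in CPM and the 15 higher genes with the largest fold outside immune symbols. Up to 4 called genes by smallest adjusted p came from each of 54 lists, with no condition on overlap, and some genes that the rule names are not reported here. Members and lists were chosen with earlier results of these data known, and Id2, Id3, Retnla, Dnase1, Cyp2d12 and the BMP list after their values were seen. Alternatives were DESeq2 1.42.0, RLE and upper quartile factors, no filter, limma 3.58.1 on RPKM, a replicate block, and leaving out libraries. Promoter windows and positions are from RefSeq (GRCm38.p6).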

Additional observations from a re-analysis of the deposited data

Results flagged for a closer look

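For 42 of 213 genes followed one by one, not all named in the report, the difference between the marker-matched pairs was itself called. It is the log2 fold change of GN_water against Control_captopril minus that of GN_captopril against Control_water, and 956 of all 14618 genes passed the same test (6.54%). Pairs, sex-linked markers and treatment labels cannot be told apart in it. A negative value means that the fall was larger, or the rise smaller, in the GN_water pair.

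Negative differences were -2.19 for Pck1, -1.84 for Esm1, -1.70 for Pvalb, -1.34 for Smad9, -1.20 for Dnase1, -1.14 for Id1 and -1.09 for Trpm6. Smaller ones were -0.97 for Vnn1, -0.77 for Tkfc, -0.77 for Klhl3, -0.72 for Decr2, -0.79 for Acvr2b, -0.68 for Acot3, -0.54 for Wnk1, -0.51 for Id3 and -0.49 for Kcnj16. Further negative differences were -0.49 for Acot2, -0.44 for Tfcp2l1, -0.42 for Atp6v0a4, -0.41 for Aldh6a1, -0.39 for Sirt3, -0.32 for Ctps, -0.31 for Hnf4a, -0.30 for Acss2 and -0.29 for Smurf2.

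Positive differences were 1.87 for Ptger1, 1.36 for Aplnr, 1.15 for Bmp3, 0.94 for Lgals3, 0.84 for Ddit4, 0.75 for Sostdc1, 0.66 for Lcp1 and 0.65 for Bag3. Further ones were 0.65 for Fstl1, 0.64 for Dnajb1, 0.62 for Irx1, 0.58 for Anxa2, 0.55 for Arpc1b, 0.54 for Dhcr7, 0.53 for Lss, 0.51 for Fxyd5 and 0.39 for Vasp.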

How the results depend on the processing

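No called log2 fold change of the 213 genes followed one by one reversed, while the larger count of the solute carriers turned from lower to higher under upper quartile factors. Of 3800 recomputed log2 fold changes of the 190 called genes 3704 were called and 96 were not, and 158 genes were called in all of up to 20 settings. Of 460 values of the uncalled genes 13 were called. Upper quartile factors gave 1377 lower genes in the average and 474 in the GN_captopril pair. Without the 2 libraries with most adrenal counts the GN_captopril pair gave 623 higher and 358 lower genes. Without the 3 with most, a choice made after seeing the data, the average gave 1463 higher and 831 lower (796 of them among the 2133), the GN_captopril pair 195 higher and 67 lower and the difference between pairs 229 higher and 215 lower. DESeq2 gave 726 lower genes for that difference. Fewer libraries entered those fits, and the cause was otherwise not tested. Leaving out 1 library gave, in the average, 2005 to 2377 genes higher, 703 to 846 at least 2-fold higher, 1783 to 2353 lower and 25 to 36 at least 2-fold lower. In the GN_water pair it gave 1748 to 2605 higher and 1324 to 2216 lower, in the GN_captopril pair 569 to 1015 higher and 388 to 759 lower, and for the difference between pairs 226 to 732 higher and 259 to 788 lower. Lowest were the difference counts without GN_water replicate 3 and Control_water replicate 2, and highest without Control_water replicate 1. Of 2070 recomputed list counts, 1776 stayed within 1.5 times. With the title numbers as a replicate block the average gave 2390 higher and 2290 lower genes, 774 and 27 of them at least 2-fold, the GN_water pair 2532 and 2098, the GN_captopril pair 1052 and 852, and the difference 610 and 586. Correlations of deviations from the group mean were alike for libraries of the same number (18, -0.24 to 0.24, median 0.01) and of other numbers (36, -0.28 to 0.30, median -0.01). Deviations from a mean of 3 libraries constrain each other, so these correlations cannot decide whether the numbers pair the samples. At these depths, genes under about 1 CPM are measured by few counts.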

Other observations

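The lists and families of this section are set beside the 14.6% lower and 16.3% higher over all genes. Of 35 genes of fatty acid synthesis and lipid storage 10 were lower (28.6%) and 1 higher (2.86%; median -0.12; 4 lower without the 3 libraries with most adrenal counts, 0 higher without any 1 of 3 libraries). Mgll, which splits monoglycerides, was lower in the GN_water pair (-0.54) and had -0.09 in the other. Of 28 pentose phosphate and nucleotide genes 6 were lower (21.4%) and 3 higher (10.7%): Ctps, which makes CTP, had 21.5 to 22.5 CPM in Control_water, 21.95 to 23.9 in Control_captopril, 25.2 to 27.4 in GN_water, and 30.5 to 33.4 in GN_captopril, above all controls in every GN library (0.36 ± 0.05, adjusted p = 4.45e-05; 0.20 and 0.52 in the pairs), and Prps2, which activates ribose, was lower in both pairs (-0.31 and -0.31). Of 34 Wnt and Notch genes 6 were higher (17.6%) and 4 lower (11.8%; 1 lower without the 3 libraries with most adrenal counts). Among them Dkk3, a Wnt modulator, rose in both pairs (0.51 ± 0.07, adjusted p = 6.49e-05), and Dll4, the Notch ligand of endothelium, was lower in the GN_water pair (-0.66, adjusted p = 0.000784) with -0.09 in the other. Of 24 hypoxia targets 7 were lower (29.2%) and 4 higher (16.7%), and Ddit4, an inhibitor of mTOR signalling, rose in the GN_water pair (1.06, against 0.22). Of 34 genes of phagocyte lipid and lysosome handling 15 were higher (44.1%) and 1 lower (2.94%; 1 to 4 lower when 1 library was left out), and Apoe had 214 to 268 CPM in Control_water, 486 to 523 in Control_captopril, 1068 to 1410.2 in GN_water, and 406 to 606 in GN_captopril (1.19 ± 0.10, adjusted p = 9.65e-06).

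Among the remaining transport lists, potassium channels of the nephron had 7 of 17 lower (41.2%) and 2 higher (median -0.24), among the lower Kcnj10 and Kcnj16, and Kcnn4, a calcium-activated channel of leukocytes, rose by 2.31 ± 0.26. The sodium-potassium ATPase list had 6 of 19 lower (31.6%) and 1 higher (2 higher without Control_water replicate 2 or GN_captopril replicate 1), and Fxyd5 rose (1.21 and 0.69 in the pairs). Phosphate, sulfate and vitamin transport had 4 of 24 in each direction, with 2 to 5 higher and 4 to 7 lower when 1 library was left out, Slc13a1, the sulfate transporter, being lower in all GN libraries (-0.29 ± 0.06). Zinc and copper genes had 3 of 21 higher and 1 lower, and water and urea transport 2 of 19 in each direction, all 4 counts moving by over 1.5 times with single libraries. The loop of Henle and thick ascending limb list had 6 of 14 lower (42.9%) and 2 higher (2 lower under upper quartile scaling).

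Among gene families, tubulins had 7 of 13 higher (53.8%) and 0 lower (median 0.31). Cytochrome P450 genes had 8 of 50 lower (16%) and 5 higher (10%), beside 14.6% lower and 16.3% higher over all genes. The UDP-glucuronosyltransferases had 5 of 14 lower and 0 higher. ATP synthase subunits had 4 of 17 lower and cytochrome c oxidase subunits 3 of 16, counts that reached 10 and 6 without Control_water replicate 1. Cytosolic ribosomal proteins had 5 of 83 higher (6.02%; 0 to 5 when 1 library was left out). Proteasome subunits had 6 of 46 higher (13%) and 2 lower (4.35%; 0 to 4 lower when 1 library was left out). Zinc finger genes with a Zfp symbol had 27 of 334 lower (8.08%) and 9 higher (2.69%). None of the shares for ribosomal, proteasome and Zfp genes was above that over all genes. Genes known to be male-biased in mouse kidney had 4 of 20 higher (20%) and 3 lower (15%; 1 lower without Control_captopril replicate 2 or 3 and 0 under upper quartile scaling). Genes listed as female-biased had 4 of 15 lower (26.7%) and 0 higher. Their sum ran against that name. It was 8950 to 9783 CPM in Control_water and 8077 to 9303 in GN_captopril, which carried Y-linked RNA. In the groups with Xist it was lower, at 5997 to 7122 CPM in Control_captopril and 5116 to 5246 in GN_water.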
